A study of Mus musculus with 31 samples.

Results

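The genes described here make cholesterol and long-chain fatty acids or control that synthesis. They are 31 genes named by their textbook role, and all 31 had at least 10 counts in at least 5 of the kidneys, among 23509 genes in the files. By role they comprised 6 genes of the mevalonate stage, 10 of the squalene and sterol stage, 4 regulators, 5 of fatty acid synthesis and the supply of its precursors, 5 of fatty acid elongation and desaturation, and 1 sterol carrier. Kidney mRNA was sequenced from 31 mice. Pcy/CD1 mice carry the pcy mutation on the CD1 background and develop slowly growing kidney cysts. From 5 weeks of age, 14 Pcy/CD1 mice received subcutaneous RGLS4326 at 25 mg/kg each month and 12 Pcy/CD1 mice received PBS, in both cases for 25 weeks. A further 5 untreated male CD1 mice of the same age served as wild type, and all kidneys were taken at 30 weeks. RGLS4326 is a short, chemically modified oligonucleotide that binds the microRNA miR-17. The wild-type mice received no injection. The Pcy/CD1 mice were male by the study's text, and their sex is not in the labels. PBS was given weekly by the sample labels and by a figure legend of the study, whereas the treatment text reads as monthly. With weekly PBS and monthly RGLS4326, drug and injection schedule cannot be told apart.

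Cholesterol is built from acetyl-CoA through mevalonate and squalene, which is closed into lanosterol and trimmed to cholesterol in the endoplasmic reticulum. Fatty acids are built from the same acetyl-CoA by carboxylation and repeated condensation, then lengthened and desaturated by membrane enzymes. SREBP transcription factors drive the genes of both routes: when sterols are scarce, SCAP escorts SREBP to the Golgi for cleavage, and when sterols are plentiful, INSIG holds the complex back. In the kidney the proximal tubule, rich in mitochondria, carries much of the metabolic work.

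Promoter sequences are shown first because the members share regulators and moved in opposite directions in the cystic kidney. Windows from 250 bases before to 50 bases after an annotated start were matched for 24 of the 31 members in RefSeq's GRCm38.p6 promoters. The 7 without one were Fdps, Fdft1, Sqle, Scd2 and Fads1, which were higher with disease, Stard4, which was lower, and Scd1, so that genes that rose and genes that fell are unequally covered. Each motif was searched on either strand, and a gene with several windows counted when any of them held it. The NF-Y letters CCAAT stood in 20 of the 24 members, against 41.1% of 27025 genes with a window and 42.2% of the 11269 of them that were tested for expression. The GC box GGGCGG also stood in 20 of the 24, against 38.2% of all genes with a window and 65.5% of the tested ones. One form of the sterol regulatory element, TCACNCCAC, stood in 1 of the 24, Hmgcs1, against 1.44% and 1.46%. Printed in full are Hmgcs1 (chr13:119690101-119690400, plus strand) and Hsd17b7 (chr1:169969156-169969455, minus strand), which fell in the cystic kidney, and Mvk (chr5:114444019-114444318, plus strand) and Elovl6 (chr3:129532136-129532435, plus strand), which rose. Capitals mark every match of the 3 motifs on either strand, and no matches overlap in these windows.
Hmgcs1: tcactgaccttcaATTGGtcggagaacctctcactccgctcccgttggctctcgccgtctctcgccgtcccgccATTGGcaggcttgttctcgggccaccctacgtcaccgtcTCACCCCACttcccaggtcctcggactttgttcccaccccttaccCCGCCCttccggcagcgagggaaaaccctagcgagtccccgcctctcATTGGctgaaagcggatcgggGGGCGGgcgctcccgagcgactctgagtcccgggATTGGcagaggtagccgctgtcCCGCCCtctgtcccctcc
Hsd17b7: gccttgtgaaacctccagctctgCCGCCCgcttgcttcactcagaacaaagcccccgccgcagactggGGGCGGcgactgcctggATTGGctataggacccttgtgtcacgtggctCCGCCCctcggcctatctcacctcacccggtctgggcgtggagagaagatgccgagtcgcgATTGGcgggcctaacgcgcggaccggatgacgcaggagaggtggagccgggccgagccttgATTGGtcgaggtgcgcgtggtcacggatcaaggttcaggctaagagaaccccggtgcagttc
Mvk: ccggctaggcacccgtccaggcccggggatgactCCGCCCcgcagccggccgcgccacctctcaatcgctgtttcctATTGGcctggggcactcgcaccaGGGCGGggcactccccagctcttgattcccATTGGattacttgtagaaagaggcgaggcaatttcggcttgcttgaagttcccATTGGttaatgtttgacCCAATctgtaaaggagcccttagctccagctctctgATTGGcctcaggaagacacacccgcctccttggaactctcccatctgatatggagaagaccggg
Elovl6: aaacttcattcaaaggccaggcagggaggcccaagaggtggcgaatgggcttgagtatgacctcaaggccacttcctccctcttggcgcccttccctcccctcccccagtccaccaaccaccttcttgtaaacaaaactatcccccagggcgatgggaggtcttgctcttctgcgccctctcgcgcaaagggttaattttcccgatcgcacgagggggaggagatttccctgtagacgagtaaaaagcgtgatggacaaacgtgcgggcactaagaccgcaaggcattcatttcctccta
The Hmgcs1 window held 4 matches to CCAAT, 3 to the GC box and the sterol element, which began 137 bases before the start. Hsd17b7 held 3 of CCAAT and 3 of the GC box, Mvk held 5 and 2, and Elovl6 held none of the motifs. The letters describe the windows and not binding.

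The treatment was directed at miR-17, whose mature form in RefSeq (chr14:115043684-115043706, plus strand, GRCm38.p6) is given with its seed, bases 2 to 8, in capitals.
mmu-miR-17-5p: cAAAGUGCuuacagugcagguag
The complement of that seed, GCACTTT, occurred in the longest annotated 3′UTR of 3 of the 31 members, Lss, Elovl6 and Stard4, against 14% of 13825 tested genes with an annotated 3′UTR. Sites with 10 bases on either side, the match in capitals, are given for Lss (chr10:76554609-76554635, plus strand) and Elovl6 (chr3:129635991-129636017, plus strand).
Lss: tggccatggtGCACTTTgtgccctctg
Elovl6: tgcttccaaaGCACTTTagtctcagtg
Between RGLS4326 and PBS, the log2 fold change of Elovl6 was −0.29, that of Lss was 0.11 and that of Stard4 was 0.11. Of these genes, Elovl6 alone passed the test.

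Levels are given as CPM, the deposited counts of a gene as a share of its library after TMM scaling, and differences between groups as log2 fold changes from edgeR's quasi-likelihood test, with adjusted p-values taken over all 15185 genes tested. A gene passed when its adjusted p was under 0.05. Each mouse had 14892524 to 27459962 counts in genes, and single values of members ran from 6.06 CPM (Idi1, PBS-treated mouse 5) to 758 CPM (Me1, wild-type mouse 5). The closest pair of libraries in a group was that of wild-type mice 3 and 4 (chi-square of 2.84 per gene over 10690 genes, where sampling alone gives about 1) and both were kept. RGLS4326-treated mouse 9 stood apart from its group and near the wild-type mice. The treatment calls of members that are lost without it, those of Hmgcs1, Pmvk, Mvd and Fdft1, are named beside their values. Among other genes of these routes, described further below, treatment calls fell from 9 to 4 without it, and the genes lost are not named.

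In cystic kidneys given PBS, members differed from wild type in either direction, as did genes at large. Against wild type, 27 of the 31 members passed the test, 11 higher and 16 lower, while Sc5d, Acaca, Fasn and Scd1 did not pass. Over all genes tested the same contrast called 74.3%, 37.7% higher and 36.6% lower, so the members' share of 87.1% should be read against a background in which most genes differed. With a size of at least 0.5 on the log2 scale required as well, 12 members passed, 6 in each direction, against 42.4% of all genes. The median log2 fold change of the members was −0.34, and that of all genes tested was 0.01. Ranges of wild-type and PBS-treated mice did not overlap for 15 members, 5 higher and 10 lower, against 42.2% of all genes. Within the index series, the runs of library numbers that serve as the nearest thing to a batch in the deposited names, 20, 20 and 13 members passed in series 1, 2 and 3 alone, where 7905, 6918 and 5891 of all genes passed against 11281 in all mice, and with series as a covariate 27 passed.

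With RGLS4326, fewer members passed. Against PBS, 10 of the 31 members passed, against 15.8% of all genes tested. Hmgcs1, Mvd, Hsd17b7 and Me1 were higher, against 9.15% of all genes, and Mvk, Pmvk, Fdft1, Srebf2, Elovl6 and Scd2 were lower, against 6.66%. Scd2 was the member that also exceeded 0.5 on the log2 scale, which 2.15% of all genes did. The median over members was 0.08. The contrast shares its PBS-treated mice with the previous one, and the values are only set side by side. Scd2, Elovl6 and Mvk passed in all 26 fits that left out 1 mouse, and the other 7 in 12 to 23 of them. The count fell to 3 without PBS-treated mouse 5, 9 or 10, to 4 without PBS-treated mouse 3, to 5 without PBS-treated mouse 2 or RGLS4326-treated mouse 8 or 13, and to 6 without RGLS4326-treated mouse 3, 6, 9 or 10 or in a fit of only the PBS and RGLS4326 groups. Calls over all genes fell in the same fits, from 2402 to 789, 842 and 618 without PBS-treated mouse 5, 9 or 10, to 921 without PBS-treated mouse 3 and to between 1026 and 1480 in the rest. In each index series alone edgeR called 0 of all genes, and so 0 members, with 0, 11 and 10 at an unadjusted p under 0.05 in series 1, 2 and 3. Each of the 10 members kept its sign in all 3 series. They were called from these same mice, so the signs are no separate support. In series 1 their values ran from −0.257 (Pmvk) through 0.009 (Hsd17b7) to 0.101 (Me1).

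**Figure D1:**
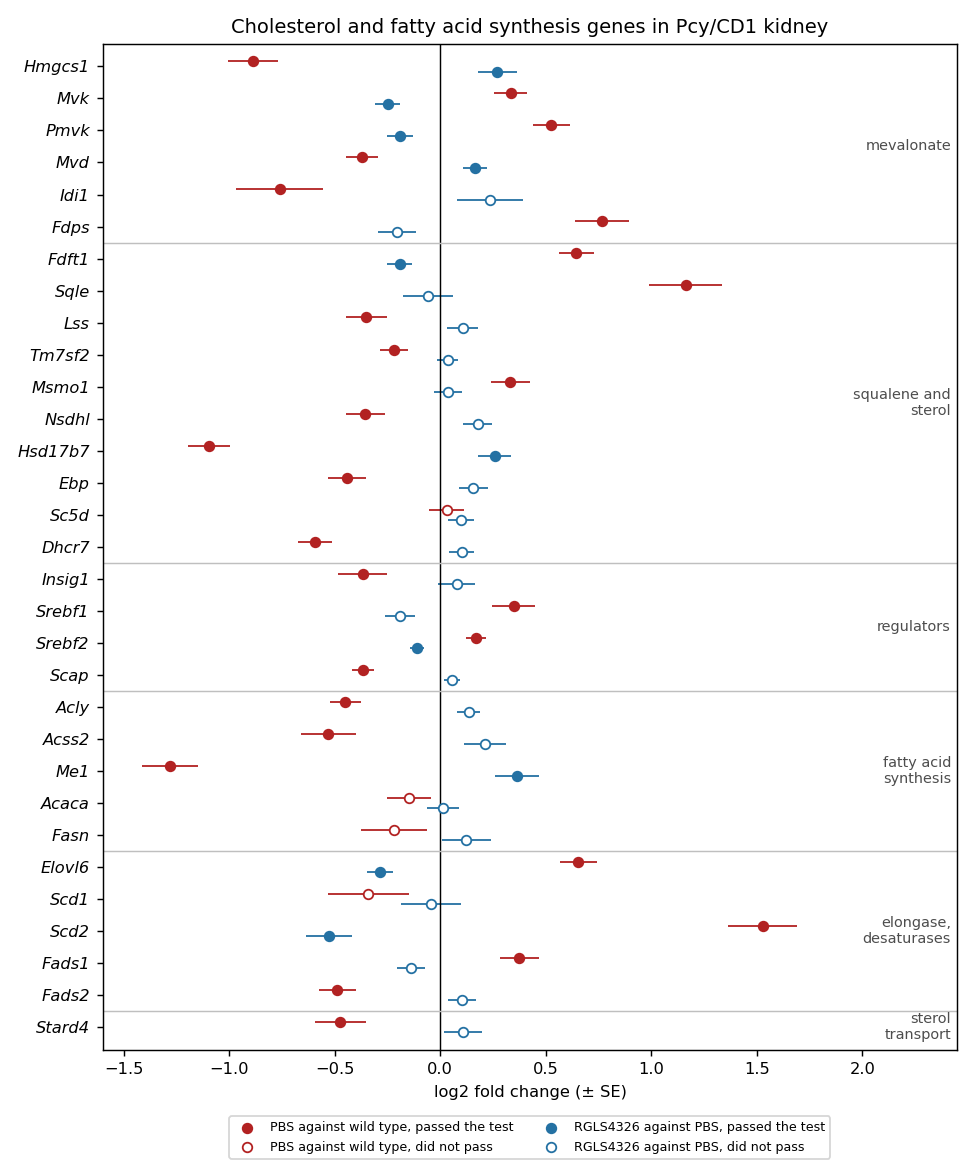
Log2 fold change (± SE) of each of the 31 members, ordered by role, in PBS-treated Pcy/CD1 mice against wild type (red) and in RGLS4326-treated against PBS-treated mice (blue). Filled points passed an adjusted p under 0.05 in edgeR's quasi-likelihood test. Red points run from −1.28 for Me1 to 1.53 for Scd2, and blue points from −0.53 for Scd2 to 0.36 for Me1, and both contrasts use the same PBS-treated mice.

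In the mevalonate stage, each of the 6 genes passed with disease, 3 in each direction. Hmgcs1 (chromosome 13, 119690379 to 119708260, plus strand, GRCm38) condenses acetyl-CoA units into HMG-CoA. In wild-type mice 1 to 5 it read 649, 698, 600.0, 621 and 604 CPM, against 238 at the lowest, 354 at the median and 496 at the highest with PBS and 326, 409 and 516 with RGLS4326. Every PBS-treated mouse lay below every wild-type mouse, and 11 of 14 RGLS4326-treated mice lay above the PBS median. The log2 fold change with disease was −0.89 (SE 0.12, edgeR adjusted p = 1.91e-07) and with RGLS4326 0.27 (SE 0.09, edgeR adjusted p = 0.0457). Without RGLS4326-treated mouse 9 the latter was 0.24 and no longer passed (edgeR adjusted p = 0.0772).

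Mvd (chromosome 8, 122433601 to 122443422, minus strand) decarboxylates mevalonate diphosphate. It read 69.2, 74.8, 69.5, 75.1 and 66.8 CPM in wild-type mice 1 to 5. PBS-treated mice ran from 46.9 through a median of 53.7 to 63.1 CPM, and RGLS4326-treated mice from 51.4 through 61.3 to 72.7 CPM. Wild-type and PBS-treated mice did not overlap, and 12 of 14 RGLS4326-treated mice exceeded the PBS median. Mvd fell by 0.37 on the log2 scale with disease (SE 0.07, edgeR adjusted p = 5.59e-05) and was 0.17 higher with RGLS4326 (SE 0.06, edgeR adjusted p = 0.0444), a call lost without RGLS4326-treated mouse 9 (edgeR adjusted p = 0.0707). Idi1, which isomerises isopentenyl diphosphate, was lower with disease by the same test (−0.76) and varied widely among wild-type mice, from 8.43 CPM in mouse 1 to 26.2 in mouse 5.

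Mevalonate kinase, Mvk (chromosome 5, 114444269 to 114460591, plus strand), moved the other way. It read 15.3, 16, 12.4, 13.5 and 15 CPM in wild-type mice 1 to 5, and 15.8, 18.4 and 20.7 CPM at the lowest, median and highest with PBS. With RGLS4326 the same values were 12.5, 15 and 17.8 CPM, 10 of 14 mice lay within the wild-type range, and 0 of 14 exceeded the PBS median. The log2 fold change was 0.33 with disease (SE 0.08, edgeR adjusted p = 0.000463) and −0.25 with RGLS4326 (SE 0.06, edgeR adjusted p = 0.0113), the latter called in all 26 fits that left out 1 mouse. Pmvk, the next kinase of the route, had 0.53 with disease, passing, and −0.19 with RGLS4326, passing with all mice (edgeR adjusted p = 0.0409) but not without mouse 9 (−0.18, edgeR adjusted p = 0.0664). Fdps, which joins the isoprenoid units into farnesyl diphosphate, had 0.77 with disease, passing, and −0.21 with RGLS4326, not passing (edgeR adjusted p = 0.0944).

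The squalene and sterol stage held the 2 members of the cholesterol route that shifted most, and they shifted in opposite directions. Of 10 genes, 3 were higher with disease (Fdft1, Sqle, Msmo1), 6 were lower (Lss, Tm7sf2, Nsdhl, Hsd17b7, Ebp, Dhcr7) and Sc5d did not pass. Hsd17b7 (chromosome 1, 169949535 to 169969241, minus strand) encodes the 3-ketosteroid reductase that works with Nsdhl in removing the C4 methyl groups. Its wild-type values in mice 1 to 5 were 45.1, 41.2, 42.6, 45.7 and 41.6 CPM, and with PBS the lowest, median and highest were 15.1, 20.0 and 25.3 CPM. With RGLS4326 they were 19.1, 23.7 and 37.8 CPM, the highest being mouse 9, and 13 of 14 mice exceeded the PBS median. No Pcy/CD1 mouse of either group reached the wild-type range. Hsd17b7 fell by 1.1 on the log2 scale with disease (SE 0.10, edgeR adjusted p = 1.44e-09) and was 0.26 higher with RGLS4326 (SE 0.08, edgeR adjusted p = 0.0302), or 0.20 without mouse 9 (edgeR adjusted p = 0.0418).

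Dhcr7 (chromosome 7, 143823145 to 143848410, plus strand) reduces 7-dehydrocholesterol to cholesterol. It read 43.8, 46.8, 41.7, 39.7 and 45.5 CPM in wild-type mice 1 to 5, and 22.2, 28.9 and 33.4 CPM at the lowest, median and highest with PBS. RGLS4326-treated mice read 26.6, 30.2 and 41.7 CPM on the same summary, with mouse 9 alone inside the wild-type range. The log2 fold change was −0.59 with disease (SE 0.08, edgeR adjusted p = 1.58e-07) and 0.10 with RGLS4326, which did not pass (SE 0.06, edgeR adjusted p = 0.215). The remaining lower genes of the stage were Lss, the lanosterol synthase (−0.35), Tm7sf2, a sterol C14 reductase (−0.22), Nsdhl (−0.36) and Ebp, the sterol isomerase (−0.44), and with RGLS4326 none of the 4 passed in edgeR or DESeq2, while Nsdhl and Ebp had an unadjusted p under 0.05. Tm7sf2 passed in 6 of 10 alternative analyses with disease, and the other lower genes of the stage in 8 or more.

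Fdft1 (chromosome 14, 63145150 to 63179578, minus strand) encodes squalene synthase, the first step committed to sterols. It read 24.8, 21.9, 24.9, 22.8 and 24.3 CPM in wild-type mice 1 to 5. With PBS it read 28.5 at the lowest, 36.8 at the median and 44.2 at the highest, and with RGLS4326 27.9, 31.2 and 36.6 CPM. Both Pcy/CD1 groups lay wholly above wild type, and 0 of 14 RGLS4326-treated mice exceeded the PBS median. Fdft1 rose by 0.65 on the log2 scale with disease (SE 0.08, edgeR adjusted p = 9.5e-08) and was 0.19 lower with RGLS4326 on that scale (SE 0.06, edgeR adjusted p = 0.0318), not passing without RGLS4326-treated mouse 9 (edgeR adjusted p = 0.0515).

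Sqle (chromosome 15, 59315077 to 59331192, plus strand), the squalene epoxidase, is described in full after its values were seen because its difference was large with disease and near 0 with treatment. It read 48.7, 51.8, 29.9, 33.5 and 61.2 CPM in wild-type mice 1 to 5, and 91.4, 102 and 109 CPM at the lowest, median and highest with PBS. With RGLS4326 the median was 102 CPM and the highest 118 CPM. Mouse 9 read 34.5 CPM, inside the wild-type range, whereas the next lowest RGLS4326-treated mouse, mouse 12, read 79.9 CPM, above every wild-type mouse. Sqle rose by 1.16 on the log2 scale with disease (SE 0.17, edgeR adjusted p = 7.13e-07). The difference between RGLS4326 and PBS was −0.06 (SE 0.12, edgeR adjusted p = 0.742), or 0.01 without mouse 9. Msmo1, the C4-methylsterol oxidase, had 0.33 with disease, passing, and 0.04 with RGLS4326, not passing.

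The 4 regulators each passed with disease at sizes below 0.5, with both SREBP genes higher and both genes of their retention and escort lower. Srebf2 (chromosome 15, 82147181 to 82205379, plus strand) encodes the factor that mainly drives sterol genes. It read 103, 101, 93.6, 94.9 and 111 CPM in wild-type mice 1 to 5, 105, 112 and 124 CPM at the lowest, median and highest with PBS, and 93.4, 106 and 115 CPM with RGLS4326. The ranges overlapped, 12 of 14 RGLS4326-treated mice lay in the wild-type range, and 1 of 14 exceeded the PBS median. Srebf2 had a log2 fold change of 0.17 with disease (SE 0.05, edgeR adjusted p = 0.00172) and −0.11 with RGLS4326 (SE 0.03, edgeR adjusted p = 0.0333). Srebf1 (chromosome 11, 60199089 to 60222581, minus strand), whose products mainly drive fatty acid genes, read 77.1, 60.5, 60.9, 61.5 and 66.6 CPM in wild-type mice 1 to 5. Its lowest, median and highest values were 66.2, 85.2 and 99.4 CPM with PBS and 55.2, 73.7 and 89.1 CPM with RGLS4326, so the groups overlapped. The log2 fold change was 0.35 with disease (SE 0.10, edgeR adjusted p = 0.00284), and −0.19 with RGLS4326, which did not pass (SE 0.07, edgeR adjusted p = 0.0656).

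Insig1 (chromosome 5, 28071363 to 28078662, plus strand), the retention protein and itself a target of SREBP, read 33.9, 34.9, 37.0, 38.7 and 32.3 CPM in wild-type mice 1 to 5. With PBS it read 21.7, 28.8 and 33.1 CPM at the lowest, median and highest, with only mice 1 and 3 reaching the wild-type range, and with RGLS4326 22, 28 and 46.7 CPM. The highest value of all mice was that of RGLS4326-treated mouse 9. Insig1 fell by 0.37 on the log2 scale with disease (SE 0.12, edgeR adjusted p = 0.00614) and differed by 0.08 with RGLS4326 without passing (SE 0.09, edgeR adjusted p = 0.539), or by 0.008 without mouse 9. Scap (chromosome 9, 110333288 to 110384950, plus strand), the escort protein, was the more uniform of the pair. Its wild-type values in mice 1 to 5 were 169, 156, 169, 161 and 149 CPM, all above the PBS-treated mice, which read 112, 127 and 133 CPM at the lowest, median and highest. RGLS4326-treated mice read 118, 128 and 153 CPM on the same summary, with mouse 9 again the highest. Scap fell by 0.37 with disease on the log2 scale (SE 0.05, edgeR adjusted p = 2.17e-07) and had 0.06 with RGLS4326, not passing (SE 0.04, edgeR adjusted p = 0.284).

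**Figure D2:**
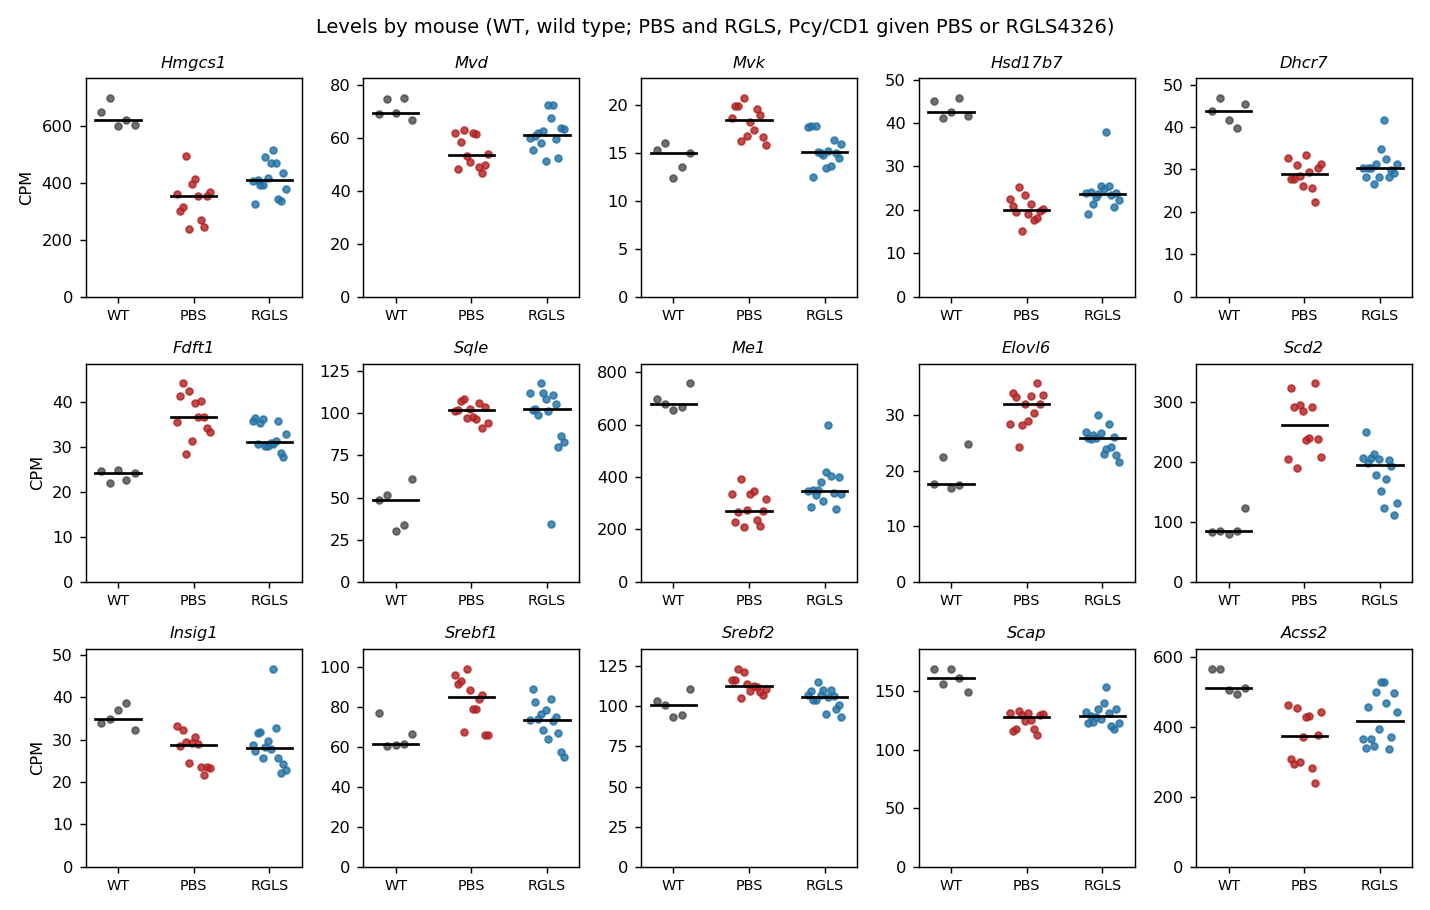
Level in CPM of 15 members in each mouse, in wild-type, PBS-treated and RGLS4326-treated mice (5, 12 and 14 mice), with the group median as a black line and each axis starting at 0. Wild-type and PBS-treated points do not overlap for Hmgcs1, Mvd, Hsd17b7, Dhcr7, Fdft1, Sqle, Me1, Scd2, Scap and Acss2, and the lowest RGLS4326-treated point for Sqle, 34.5 CPM, is mouse 9.

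All 5 genes of fatty acid synthesis and precursor supply had a negative log2 fold change with disease. The 3 genes of supply, Me1, Acss2 and Acly, passed, and the core enzymes Acaca and Fasn did not, and a difference between these sets was not tested. Me1 (chromosome 9, 86581371 to 86695953, minus strand) encodes malic enzyme, a source of NADPH. It read 700, 679, 658, 667 and 758 CPM in wild-type mice 1 to 5, 208, 272 and 394 CPM at the lowest, median and highest with PBS, and 277, 348 and 599 CPM with RGLS4326. No Pcy/CD1 mouse reached the wild-type range, the nearest was RGLS4326-treated mouse 9, and all 14 RGLS4326-treated mice exceeded the PBS median. Me1 fell by 1.28 on the log2 scale with disease (SE 0.13, edgeR adjusted p = 6.21e-09), and was 0.36 higher with RGLS4326 (SE 0.10, edgeR adjusted p = 0.0265) or 0.29 without mouse 9 (edgeR adjusted p = 0.0421). Per kilobase of annotated exon, Me1 had the highest wild-type median of the members (176 CPM per kb), and its PBS median of 70.7 CPM per kb was below that of Hmgcs1 (77.0).

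Acss2, which makes acetyl-CoA from acetate, and Acly, which makes it from citrate, had log2 fold changes of −0.53 and −0.45 with disease, with no overlap between wild-type and PBS-treated mice for either gene. With RGLS4326 they had 0.21 and 0.13, not passing (edgeR adjusted p = 0.121 and 0.0803). Acaca, the acetyl-CoA carboxylase that commits carbon to fatty acids, had −0.15 with disease (SE 0.10, edgeR adjusted p = 0.189), and Fasn, the fatty acid synthase, had −0.22 (SE 0.16, edgeR adjusted p = 0.199). Missing the threshold does not show that either was unchanged. The 2 highest Fasn values of all mice were 202 CPM in RGLS4326-treated mouse 10 and 163 CPM in PBS-treated mouse 3.

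Among elongation and desaturation genes, Elovl6, Scd2 and Fads1 were higher with disease, Fads2 was lower and Scd1 did not pass. Scd2 (chromosome 19, 44293674 to 44306864, plus strand), a stearoyl-CoA desaturase, was the member most shifted upward. Wild-type mice 1 to 5 read 82.0, 84.6, 80.1, 84.2 and 122 CPM, PBS-treated mice 190, 262 and 331 CPM at the lowest, median and highest, and RGLS4326-treated mice 111, 195 and 249 CPM. Wild-type and PBS-treated mice were far apart, and 0 of 14 RGLS4326-treated mice exceeded the PBS median. The log2 fold change was 1.53 with disease (SE 0.17, edgeR adjusted p = 9.51e-09) and −0.53 with RGLS4326 (SE 0.11, edgeR adjusted p = 0.00783), the latter called in all 26 fits that left out 1 mouse and −0.49 without mouse 9. Against wild type, RGLS4326-treated mice were still 1.0 higher on the log2 scale (SE 0.16, edgeR adjusted p = 4.81e-06). Scd1 lies on the same chromosome and encodes a closely related desaturase. It read 250, 150, 138, 141 and 315 CPM in wild-type mice 1 to 5, a wider spread than in Scd2, and its difference with disease was −0.34 (SE 0.19, edgeR adjusted p = 0.105).

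Elovl6 (chromosome 3, 129532355 to 129638495, plus strand) lengthens palmitate to stearate. Its wild-type values in mice 1 to 5 were 17.6, 22.6, 17, 17.4 and 24.9 CPM, and the lowest, median and highest were 24.3, 32.1 and 35.8 CPM with PBS and 21.6, 26.0 and 30.1 CPM with RGLS4326. Wild-type mouse 5 exceeded the lowest PBS-treated mouse, and 0 of 14 RGLS4326-treated mice exceeded the PBS median. Elovl6 rose by 0.65 with disease on the log2 scale (SE 0.09, edgeR adjusted p = 1.88e-07) and was −0.29 with RGLS4326 (SE 0.06, edgeR adjusted p = 0.00911), called in all 26 fits that left out 1 mouse. Fads1 and Fads2, the delta-5 and delta-6 desaturases of polyunsaturated fatty acids, had log2 fold changes of 0.38 and −0.49 with disease and −0.14 and 0.10 with RGLS4326, where neither passed. Fads1 changed sign to −0.03 in index series 3 alone, which holds 1 wild-type mouse. Stard4 on chromosome 18, a soluble sterol carrier, had −0.47 with disease, passing, and 0.11 with RGLS4326, not passing (edgeR adjusted p = 0.386).

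RGLS4326-treated mice still differed from wild type in most members. Against wild type 23 passed, 8 higher and 15 lower, where the same contrast called 64.9% of all genes, 32.5% higher and 32.4% lower. The 4 members that passed with disease but not here were Mvk, Nsdhl, Srebf1 and Srebf2, at 0.08, −0.18, 0.16 and 0.06 on the log2 scale. Most distant were Sqle at 1.11, Scd2 at 1.0, Me1 at −0.92 and Hsd17b7 at −0.84. In index series 2 alone 4 members passed and in series 3 alone 6 did, against 17 in series 1, where 392, 2801 and 7195 of all genes passed in the same order.

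The other genes of these routes, from lists fixed by role, passed in 33 of 39 cases with disease, 7 higher and 26 lower, where 74.3% of all genes passed, 37.7% higher and 36.6% lower. Of 6 further cholesterol synthesis genes, 0 were higher (0 at an unadjusted p under 0.05 and 0 with DESeq2) and 5 were lower, with Cyp51, the lanosterol demethylase, at −1.23, while Acat2, a cytosolic thiolase, had −0.15 and did not pass. With RGLS4326, 0 of the 6 passed in edgeR, 2 were higher at an unadjusted p under 0.05 and 1 with DESeq2, and Cyp51 and Acat2 had 0.33 and 0.19. Of 13 genes of cholesterol uptake, export and sensing, 6 were higher and 5 lower with disease, among the latter Mbtps2, the site-2 protease that releases SREBP, at −0.69, Npc1, which moves cholesterol out of lysosomes, at −0.61, and Insig2 at −0.34. Mbtps2 and Insig2 were higher with RGLS4326, at 0.28 (edgeR adjusted p = 0.0221) and 0.12 (edgeR adjusted p = 0.0458, close to the threshold). In all, 3 of the 13 passed with RGLS4326, each higher.

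Of 14 further fatty acid genes, 12 were lower with disease, where 36.6% of all genes were lower, and 2, Elovl3 and Thrsp, did not pass. Hacd2 and Hsd17b12, which carry out the dehydration and ketone reduction of the elongation cycle, had −0.86 and −0.59 with disease and 0.37 and 0.19 with RGLS4326, passing each time. The count with RGLS4326 was 4 of 14, each higher. Among 6 triglyceride genes, Lpin1, a phosphatidate phosphatase, had −1.27 and 0.49, and Dgat2, which adds the last acyl chain, had −1.16 and 0.33, all passing, while the list held 4 lower and 1 higher with disease and 2 higher with RGLS4326. Over these 39 genes together edgeR called 9 with RGLS4326, all higher, and 0 lower, where 15.8% of all genes were called, 9.15% higher and 6.66% lower. At an unadjusted p under 0.05, and with DESeq2, 1 gene of the lists, Npc2, was lower. With 1 mouse left out, edgeR called 2 to 14 of the 39 genes with RGLS4326. The count was 2 without PBS-treated mouse 10, 4 without RGLS4326-treated mouse 9 and 14 without PBS-treated mouse 4. Calls over all genes were 618, 1234 and 3864 in those fits, against 2402 in all mice. Which of the 9 calls were lost in each fit is not given here.

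The heat map of log2 differences from the wild-type mean places RGLS4326-treated mouse 9 next to wild type for most members. That mouse held the highest RGLS4326-treated value of Hmgcs1, Hsd17b7, Dhcr7, Insig1, Scap, Acss2, Me1, Lss, Tm7sf2, Scd1 and Fads2 and the lowest of Sqle and Fads1. Its summed proximal tubule markers, 23640 CPM, were the highest of its group, and its summed markers of injured tubule, 13.8 CPM, the lowest. Its summed hepatocyte markers were the highest of all mice, at 476 CPM.

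**Figure D3:**
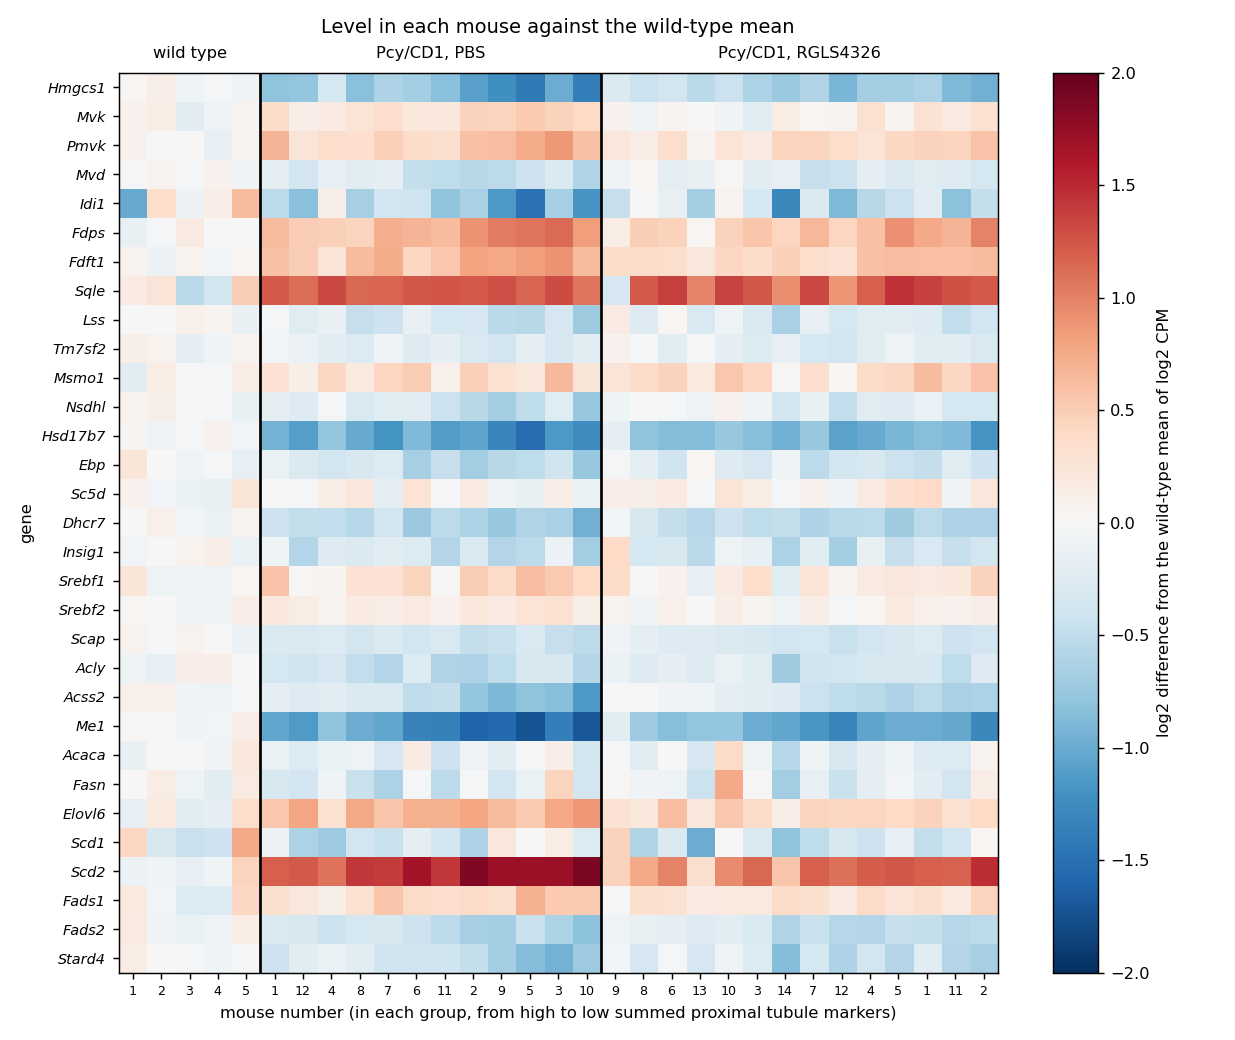
Log2 difference of each member from the wild-type mean of log2 CPM, 1 column per mouse, with the mice of each group ordered from high to low summed proximal tubule markers. Red is higher and blue lower than wild type, with the scale limited to 2 in either direction, and RGLS4326-treated mouse 9, the first column of its group, is near wild type in most rows.

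Marker genes of several kidney cell types passed the test with disease, and fewer did with RGLS4326. In bulk kidney, fewer cells of a type and less RNA per cell cannot be told apart. The summed CPM of 9 proximal tubule markers ran from 24710 to 27410 in wild-type mice, from 8156 to 15970 with PBS and from 10880 to 23640 with RGLS4326. All 9 markers were lower with disease, and 3 of the 9 were higher with RGLS4326 against PBS in edgeR and 6 with DESeq2. All 4 collecting duct markers were higher with disease, summing to 316 to 692 CPM in wild-type mice and 1018 to 2474 CPM with PBS, and 3 of the 4 were lower with RGLS4326, where the sum ran from 615 to 1637 CPM. Markers of macrophages (6 of 6), lymphocytes (4 of 4), fibroblasts (4 of 4) and injured tubule (3 of 3) were higher with disease, and 0 of these 17 passed in edgeR between RGLS4326 and PBS, with 2 at an unadjusted p under 0.05, both higher, and 0 with DESeq2. Of 3 thick ascending limb markers, 1 was higher and 1 lower with disease and 0 passed with RGLS4326 in edgeR, with 0 at an unadjusted p under 0.05 and 0 with DESeq2. Of 6 hepatocyte markers, 3 were lower with disease and 2 higher with RGLS4326 against PBS, and their sum ran from 24.7 to 262 CPM in wild-type mice, from 9.47 to 82.2 CPM with PBS and from 10.6 to 476 CPM with RGLS4326. The part of these shifts in the members' values was not tested by any fit that holds cell makeup constant.

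Within each Pcy/CD1 group, members were compared with the summed proximal tubule markers mouse by mouse, on log2 values, in 62 relations tested by 100000 permutations of mice with Benjamini-Hochberg adjustment over the 62. Of these, 37 passed with Pearson's r, 18 among PBS-treated and 19 among RGLS4326-treated mice, and 32 passed with Spearman's rho. All 16 members lower with disease had a positive r in either group, with medians of 0.76 with PBS and 0.67 with RGLS4326, and 13 of the 16 passed in each. The 11 members higher with disease had a negative r in either group, of which 5 passed with PBS and 6 with RGLS4326. These signs are not particular to the members. Of all genes lower with disease, 90.2% had a positive r with PBS and 97.0% with RGLS4326, and of all genes higher with disease, 90.9% and 96.0% had a negative r. The median r of all genes lower with disease was 0.656 with PBS and 0.661 with RGLS4326. For all genes higher with disease it was −0.65 and −0.661, against −0.595 and −0.591 for the 11 members. How many of all genes would pass was not computed, so the pass counts of members have no background. Member and marker levels are shares of the same library.

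Acss2 followed the markers most closely, with r of 0.98 and rho of 0.97 with PBS (n = 12) and r of 0.95 and rho of 0.98 with RGLS4326 (n = 14), adjusted permutation p = 0.00031 for r and 0.00062 for rho in each group, from a raw p for r of 1e-05, the smallest that 100000 permutations can give. Me1 had r of 0.91 and 0.87, and Hmgcs1 had r of 0.84 and 0.89, in the same order of groups. Scd2 ran the other way, with r of −0.89 and −0.79, as did Fdps with −0.88 and −0.81. With the 2 mice farthest from the median marker sum left out, r was 0.99 and 0.98 for Acss2 and −0.87 and −0.65 for Scd2. Sqle showed no such relation with PBS (r = −0.02), and with RGLS4326 its r of −0.59 rested on the farthest mice, since it was −0.08 without them. The PBS-treated mice fell on either side of a gap in the marker sum, 5 between 8156 and 9762 CPM and 7 between 11730 and 15970 CPM. Among the 7, a subset taken after seeing the data, all 16 members lower with disease had a positive r, with a median of 0.46, against 76.6% of all genes lower with disease, with a median of 0.41. Of the 11 members higher with disease, 6 had a negative r, against 73.4% of all genes higher with disease.

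**Figure D4:**
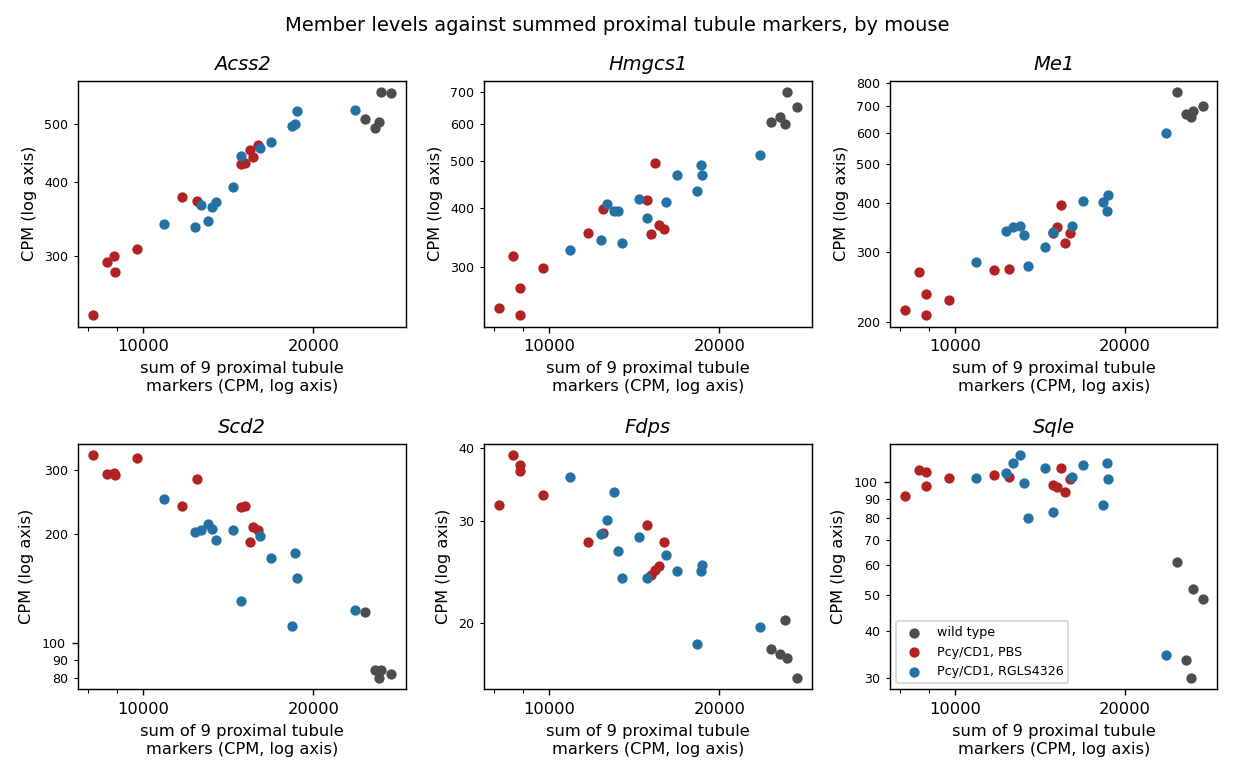
Level of 6 members (CPM, log axis) against the summed CPM of 9 proximal tubule markers (log axis) in each of the 31 mice, coloured by group. Acss2, Hmgcs1 and Me1 are higher, and Scd2 and Fdps lower, where the markers are high, while Sqle stays between 79.9 and 118 CPM in Pcy/CD1 mice except mouse 9 of the RGLS4326 group.

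Fat attached to a kidney would carry fatty acid genes, so adipocyte markers were summed as well. The sum ran from 0.12 to 3.55 CPM in wild-type mice, from 0.10 to 80.8 CPM with PBS and from 0 to 100.1 CPM with RGLS4326. PBS-treated mouse 3 had both the highest adipocyte sum of its group and its highest Fasn, 163 CPM, with Scd1 at 208 CPM. RGLS4326-treated mouse 2, with the highest sum, read 133 CPM for Fasn, and mouse 10, with the highest Fasn, 202 CPM, had a sum of 34.7 CPM. Adrenal cortex markers summed to between 1.25 and 2.76 CPM in every mouse. Of the 6 adipocyte markers, 1 was higher in PBS-treated and 4 in RGLS4326-treated than in wild-type mice in edgeR, and 2 and 6 with DESeq2. Between RGLS4326 and PBS 0 passed in edgeR, with 0 at an unadjusted p under 0.05 and 0 with DESeq2. The part of attached fat in the Fasn, Scd1 and Acaca values was not tested.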

How the data were processed

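Kidney RNA of 31 mice was made into stranded mRNA libraries and sequenced by the authors, who used TrimGalore for trimming, STAR for alignment to GRCm38 (mm10) and HTSeq 0.6.1 to count the reads that mapped to 1 place, with SAMtools 1.1, FastQC 0.11.2 and Picard 1.119 named in the submitters' processing notes. The deposited values are raw counts for 23509 genes. The annotation and the strand setting of the counting are not given in the sources used here, so reads of a gene and of an overlapping antisense gene may not have been told apart. Rows that name no gene stayed out of library sizes and tests: 8.39 to 10.09% of a file's total fell in no feature, 0.3 to 0.41% were ambiguous and 17.83 to 21.22% were not uniquely aligned. Gene totals ran from 14892524 to 27459962 per mouse.

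Genes passing edgeR's filterByExpr (15185) were fitted in 1 quasi-likelihood model of all 31 mice with TMM scaling (edgeR 4.0.16, R 4.3.3) and Benjamini-Hochberg adjustment. Approximate standard errors were obtained by dividing the size of each log2 fold change by the square root of its F. CPM used TMM-scaled library sizes. The procedure was tested on simulated counts for RGLS4326 against PBS: of 200 genes changed by 1 on the log2 scale, 187 were found and 10 unchanged genes were called among 15078 genes. Smaller changes were not simulated, whereas the members' values in this contrast ran from −0.53 to 0.36. The share found therefore does not apply to changes of the members' size. Relations across mice used log2 values, for members of CPM + 1. Python 3.11.15, numpy 2.4.6, scipy 1.17.1, pandas 2.3.3, matplotlib 3.10.9 and DESeq2 1.42.0 (as an alternative) were also used.

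Members and gene lists were chosen with earlier results of these data known. All members are named. Full values are given for the 3 members of smallest p in each direction in the contrasts of PBS with wild type and of RGLS4326 with PBS and for the 4 regulators, and for Hmgcs1 and Sqle, chosen after their values were seen. From each other list the 2 genes of smallest p in each contrast are named, except 1 that is not reported here, and Npc2, Elovl3 and Thrsp were named after their values were seen. Gene positions are from GENCODE vM21 on GRCm38. Nothing in the labels says that replicate numbers mark a shared litter or day. Index series were inferred from restarts of library numbers in the deposited names.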

Additional observations from a re-analysis of the deposited data

Results flagged for a closer look

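In wild-type mice, the Scd2 level of mouse 5, 122.2 CPM, lay apart from the other 4 mice, which read 80.1 to 84.6 CPM. Its gap to the nearest of them was more than 0.71 of the group's range, the critical value for 5 samples. Chance sets apart about 1 in 20 such groups, and 1 of the 31 members was set apart here. The same mouse had the highest wild-type value of 11 of the 31 members (Idi1, Sqle, Sc5d, Srebf2, Me1, Acaca, Fasn, Elovl6, Scd1, Scd2 and Fads1). It also had the lowest proximal tubule marker sum, 24710 CPM, and the highest sums of collecting duct (692 CPM), adipocyte (3.55 CPM) and hepatocyte (262 CPM) markers of the wild-type mice, and their part in its values was not tested. Without it the Scd2 log2 fold change of PBS-treated against wild-type mice was 1.66, against 1.53 with it.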

How the results depend on the processing

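For PBS-treated against wild-type mice, 27 members passed with RLE scaling, without the filter, with index series as a covariate, with DESeq2 and in a fit of only those groups, and 27 to 28 when 1 mouse of either group was left out. Index series 3 alone, with 1 wild-type mouse assumed to vary like the other group, gave 13 members and 15 of the other pathway genes, where 27 and 33 passed in all mice. For RGLS4326-treated against wild-type mice, 19 to 24 members passed (23 in all mice) when 1 mouse was left out, and 4 and 6 in index series 2 and 3 alone, with 1 and 5 other pathway genes, against 30 in all mice. Counts of other pathway genes with 1 mouse left out ran from 31 to 34 for PBS against wild type and from 28 to 32 for RGLS4326 against wild type.

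For RGLS4326 against PBS, 10 members passed with RLE scaling, with index series as a covariate and with DESeq2, 7 without the filter, 6 in a fit of only those groups and 3 to 13 when 1 mouse was left out. Other pathway genes numbered 9, 5 without the filter, 5 in a fit of only those groups and 2 to 14 when 1 mouse was left out. Leaving out PBS-treated mouse 10 gave 2 and PBS-treated mouse 4 gave 14. In each index series alone 0 of all genes, and so 0 members and 0 other pathway genes, passed, with 2, 12 and 6 of the latter at an unadjusted p under 0.05 in series 1, 2 and 3. The cause was not tested. By mice left out, Mvk, Elovl6 and Scd2 passed in 26 of 26 fits, Me1 in 23, Hsd17b7 in 22, Srebf2 in 19, Fdft1 in 15, Pmvk in 14, Hmgcs1 in 13 and Mvd in 12.

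With the replicate number as a block, over mice whose number occurs in both groups, 0 members and 0 other pathway genes passed for RGLS4326 against PBS, with 15 and 14 at an unadjusted p under 0.05, and 11 of all genes passed. The same mice without the block, a fit chosen after seeing the data, gave 3 and 1, and 530 of all genes. The blocked counts were 25 members and 30 other genes for PBS against wild type, 25 and 31 for RGLS4326 against wild type. The correlation of deviations between same-numbered mice averaged 0.063 over 5 pairs for PBS with wild type and −0.02 over 5 pairs for RGLS4326 with wild type. For RGLS4326 with PBS it averaged −0.05 over 12 pairs, from −0.41 to 0.42, with 4 pairs above 0.1. Mice of different numbers were not compared, so these values cannot show whether same-numbered mice belong together. The number was not taken to pair mice because no label gives it that meaning.

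Log2 fold changes of members turned sign in 36 values, none of which passed the test (edgeR adjusted p). As reported, 4 of these had passed, namely Fads1 against wild type in either Pcy/CD1 group, and Tm7sf2 and Ebp for RGLS4326 against wild type, each turned in 1 index series alone, where fewer mice were fitted. For PBS against wild type the values were 0.021 (Acaca, series 1), 0.195 (Scd1, series 2), −0.284 (Sc5d, series 3), −0.034 (Fads1, series 3) and 0.004 (Fasn, mice of the block fit without the block), and Sc5d ran from −0.005 without wild-type mouse 4 to 0.095. For RGLS4326 against wild type they were 0.03 (Tm7sf2), 0.099 (Fasn) and 0.278 (Scd1) in series 2, and 0.001 (Ebp), −0.206 (Sc5d), −0.001 (Srebf1), −0.1 (Srebf2) and −0.166 (Fads1) in series 3. For RGLS4326 against PBS they were −0.001 (Idi1), −0.089 (Lss), −0.024 (Tm7sf2), −0.006 (Ebp), −0.002 (Dhcr7), −0.049 (Insig1), −0.069 (Acaca), −0.085 (Fasn) and 0.01 (Scd1) in series 1, and −0.014 (Acaca) and 0.083 (Scd1) in series 2. Scd1 also read 0.035 with the block and 0.034 in the same mice without it. With 1 mouse left out, Scd1 ran from −0.12 to 0.011, Acaca from −0.032 to 0.044 and Sqle from −0.081 to 0.013, around reported values of −0.042, 0.013 and −0.057. The cause was not tested.

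Index series hold 1 or 2 of the 5 wild-type mice each, which limits the within-series values, and mice left out were always of the groups compared. Reads that mapped to more than 1 place were left out of the counts, which lowers the counts of close paralogs where their sequences match, and index series are inferred, not labelled.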
